A study of Mus musculus with 12 samples.

Results

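The Hox cluster genes of the mouse, 39 members of 55401 gene identifiers counted, were followed through 12 RNA-seq libraries of tissue labelled cerebellum, each from a mouse with its own animal number. Members were all identifiers whose GENCODE M21 symbol is Hox, a cluster letter from a to d and a paralog number, a rule on names that uses no read count. Libraries are named here by animal number, in 3 groups of 4. Wild-type mice given DMSO (WT DMSO) are libraries 413, 425, 426 and 431, mice heterozygous for the Atxn1154Q/2Q knock-in and given DMSO (Het DMSO) are 409, 411, 420 and 429, and heterozygotes given the compound Hit 2 dissolved in DMSO (Het Hit 2) are 410, 421, 422 and 430. The knock-in allele carries the expanded CAG repeat of spinocerebellar ataxia type 1. All mice were injected intraperitoneally every day for 5 days, rested for 2 days and were injected for 5 more days, from 18 weeks of age, and were perfused with saline at 20 weeks. Hit 2 was given at 25 mg/ml, DMSO stayed under 4 ml/kg in every group, and no wild-type mouse received Hit 2. The labels do not give the sex, litter or dissection border of the mice.

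Hox genes encode homeodomain transcription factors that give cells their position along the head to tail axis. They lie in clusters in which genes of low paralog number are switched on furthest forward, and the order along the chromosome follows the order along the body. In the developing brain their expression begins within the hindbrain: groups 1 to 5 reach forward into it, groups 6 to 8 come up to about the border of hindbrain and spinal cord, and groups 9 to 13 belong to trunk, tail and limb levels. Neurons of the adult medulla and spinal cord keep part of this pattern, whereas the cerebellum forms from the front of the hindbrain, ahead of the Hox domains. Reads of Hox genes in a cerebellar library are therefore of interest as a mark of tissue from further back.

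In the M21 annotation, built on GRCm38, cluster a holds 11 members on chromosome 6, cluster b 10 on chromosome 11, cluster c 9 on chromosome 15 and cluster d 9 on chromosome 2. The read counts were mapped to GRCm39 per the submitters' processing notes, so no count was placed by coordinate. Promoter windows from RefSeq (GRCm38.p6, 250 bases before the start and 50 after it) matched 22 of the 39 members, in 24 windows. The 250 upstream bases are shown for 4 members: Hoxa5, Hoxb4 and Hoxb8 as members of groups 5, 4 and 8 with reads in library 425, and Hoxa9 as a neighbour in cluster a without a read there. Capitals mark TAAT, the core letters bound by homeodomains, and its reverse complement ATTA. The windows are chr11:96318017-96318266 on the + strand for Hoxb4, chr6:52204588-52204837 on the - strand for Hoxa5, chr11:96281655-96281904 on the + strand for Hoxb8 and chr6:52227371-52227620 on the - strand for Hoxa9, each written 5′ to 3′ along the gene.
Hoxb4: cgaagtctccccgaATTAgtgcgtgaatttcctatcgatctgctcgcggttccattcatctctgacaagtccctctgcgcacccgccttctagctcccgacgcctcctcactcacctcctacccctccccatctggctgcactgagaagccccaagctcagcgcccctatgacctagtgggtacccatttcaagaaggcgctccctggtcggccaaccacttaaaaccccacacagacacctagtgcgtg
Hoxa5: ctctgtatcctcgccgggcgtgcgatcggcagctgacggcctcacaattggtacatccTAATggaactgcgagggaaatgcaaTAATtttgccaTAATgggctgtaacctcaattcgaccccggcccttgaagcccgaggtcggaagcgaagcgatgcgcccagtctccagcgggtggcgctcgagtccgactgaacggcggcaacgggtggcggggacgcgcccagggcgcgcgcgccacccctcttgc
Hoxb8: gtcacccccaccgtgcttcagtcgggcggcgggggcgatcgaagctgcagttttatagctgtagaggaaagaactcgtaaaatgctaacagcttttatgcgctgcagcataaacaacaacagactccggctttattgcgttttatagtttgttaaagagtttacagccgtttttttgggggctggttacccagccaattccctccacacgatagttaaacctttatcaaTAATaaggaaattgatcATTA
Hoxa9: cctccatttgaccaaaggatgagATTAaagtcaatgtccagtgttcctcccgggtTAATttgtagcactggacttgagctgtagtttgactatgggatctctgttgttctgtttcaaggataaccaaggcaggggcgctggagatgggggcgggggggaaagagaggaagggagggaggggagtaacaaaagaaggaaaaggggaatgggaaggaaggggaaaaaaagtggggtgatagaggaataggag

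TAAT, on either strand, was present in the 250 upstream bases of 18 of the 24 Hox windows (75%), against 54.9% of 32851 windows of all genes. TGATNNAT, the letters of a joint PBX and HOX site, was in 4 of 24 (16.7%), against 7.68% of all windows. The letters of both motifs can overlap and then count for both. AGGTCA, the letters of a retinoic acid receptor site, was in 6 of 24 (25%), against 14.02%. The Hox windows had a median of 12.5 CpG and 58.6% GC, against 6 and 52.4% over all windows. Windows of members read in library 425 (10 windows) had a median of 12 CpG and those of the other members (14 windows) 13. These are matches of letters, and no binding was measured.

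Depth was 15855751 to 45265719 reads assigned to genes per library. Levels are CPM (counts per 1000000 gene reads, on library sizes scaled by TMM factors), and a member is called read in a library at 0.2 CPM or more, which is about 3 reads in the shallowest library. Library 411, labelled cerebellum, stood apart from all others: genes of cerebellar neurons summed to 469 CPM there and to 6331 to 13309 CPM in the other 11 libraries. Library 409 had fewer genes with a read than any other library, 24361, at the highest depth. Because the samples are bulk tissue, fewer cells of a type and less RNA per cell cannot be told apart.

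Hox reads were nearly all in a single wild-type library. Library 425 held 1237 of the 1373 reads assigned to Hox genes (90.1%), and the other 11 libraries together held 136. In library 425, 18 of the 39 members were read, each with at least 10 reads: Hoxa2 to Hoxa7, Hoxb2 to Hoxb8, Hoxc4 to Hoxc6, Hoxd3 and Hoxd4. Outside it, a member passed 0.2 CPM in only 2 cases, Hoxa7 in library 429 (0.208 CPM, 5 reads) and Hoxc4 in library 410 (0.231 CPM, 4 reads). No member had more than 5 reads in any library other than 425.

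**Figure D1:**
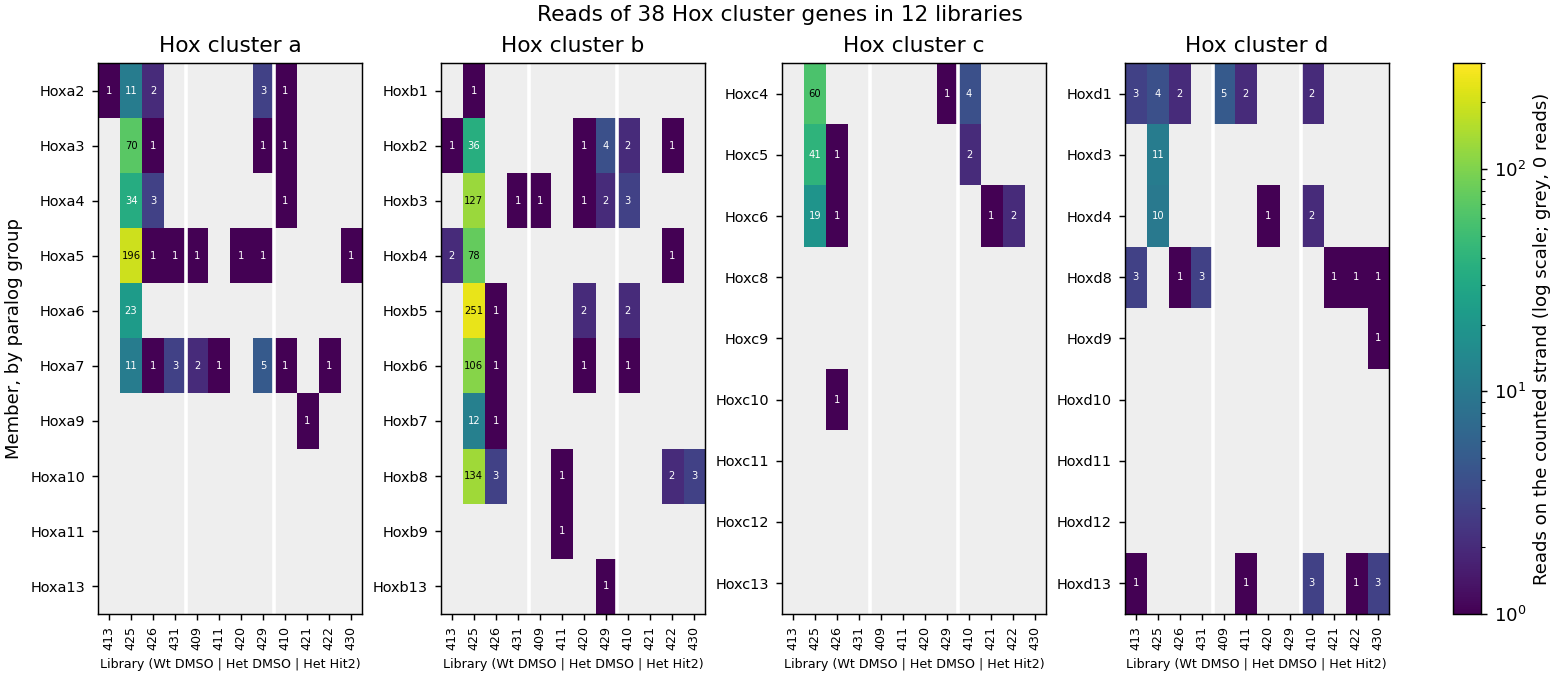
Reads assigned to 38 of the Hox genes (rows, by paralog number, with a panel for each cluster) in each of the 12 libraries (columns, in the order WT DMSO, Het DMSO, Het Hit 2, parted by white lines), with the count in each cell, the shade on a log scale and grey for 0 reads. The column of library 425 is filled from group 1 to group 8 in cluster b and from group 2 to group 7 in cluster a, while no cell of the other columns exceeds 5 reads.

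Summed over the 39 members, the WT DMSO libraries had 0.392 (413), 29.1 (425), 0.522 (426) and 0.402 CPM (431). The Het DMSO libraries had 0.222 (409), 0.453 (411), 0.435 (420) and 0.750 CPM (429), and the Het Hit 2 libraries 1.56 (410), 0.296 (421), 0.230 (422) and 0.468 CPM (430). Library 425 was the highest and 410 the next, and without 425 the ranges of the 3 groups overlapped. As CPM without the TMM factors, a plain share of gene reads, the sum was 29.2 in library 425 (95% Wilson interval 27.6 to 30.8) and 1.59 in 410 (1.09 to 2.31). The ratio of their summed CPM was 18.6, with a 95% counting interval of 12.7 to 28.4. These intervals cover counting error only, since reads from PCR without molecular identifiers are not independent molecules. Library 425 had 42433914 gene reads, and libraries 409, 422 and 426, with 45265719, 43670280 and 38972046, had 9, 10 and 20 Hox reads.

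**Figure D2:**
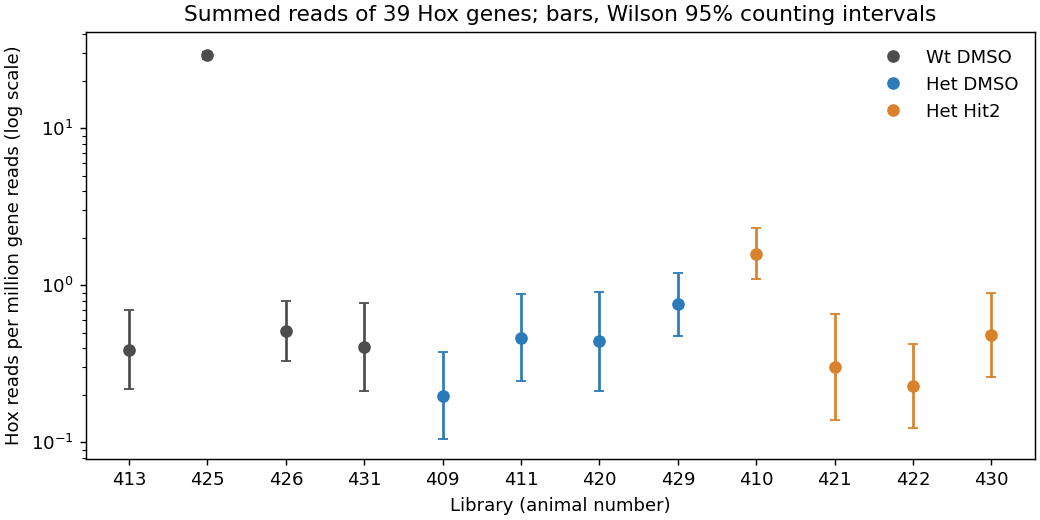
Summed Hox reads of each library as CPM without TMM factors, on a log axis, coloured by group, with 95% Wilson intervals as bars. Library 425 stands at 29.2, library 410 at 1.59 and the other 10 libraries between 0.199 and 0.758.

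The group means followed from this library. The mean summed Hox level was 7.60 ± 14.3 CPM in WT DMSO (SD, n = 4), 0.465 ± 0.217 CPM in Het DMSO and 0.639 ± 0.623 CPM in Het Hit 2. Without library 425, the WT DMSO mean was 0.439 ± 0.0721 CPM (n = 3).

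Paralog groups 1 to 5, the hindbrain range of the clusters, gave 932 of the 1237 reads of library 425 (75.3%), and 12 of their 15 members were read. Groups 6 to 8 gave 305 reads (24.7%) with 6 of 8 members read. Groups 9 to 13 gave 0 reads over 16 members, so that each lay under the limit of 3 reads, or 0.0705 CPM, that a count of 0 is taken to allow. The exact Poisson interval of a count of 0 reaches further, to 0.0867 CPM. The other 11 libraries together had 81 reads of groups 1 to 5, 41 of groups 6 to 8 and 14 of groups 9 to 13. By cluster, library 425 had 745 reads of cluster b (60.2%), 347 of cluster a (28.1%), 120 of cluster c (9.70%) and 25 of cluster d (2.02%).

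Group 1 had few reads. Hoxb1, which in the embryo acts in the fourth rhombomere, had 1 read in library 425 and 0 elsewhere, and Hoxd1 had 4 in 425. Hoxd1 was read as often elsewhere: it had 3 reads in 413, 2 in 426, 5 in 409, 2 in 411 and 2 in 410. Hoxd1 did not mark library 425 off from the others.

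Group 2 reaches furthest forward in the embryonic hindbrain. Hoxb2 had 36 reads in library 425 (0.846 CPM), 1 in 413 and 0 in 426 and 431; in Het DMSO it had 1 in 420, 4 in 429 and 0 in the other two, and in Het Hit 2 it had 2 in 410, 1 in 422 and 0 in the other two. Hoxa2, which patterns the second branchial arch, had 11 reads in 425 (0.259 CPM), 3 in 429, 2 in 426 and 1 each in 413 and 410. Library 429 was thus the next highest for both members of group 2 by reads.

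Group 3 gave 208 reads in library 425. Hoxb3 had 127 reads there (2.98 CPM) and 1 in 431 within WT DMSO; outside that group it had 1 in 409, 1 in 420, 2 in 429 and 3 in 410. Hoxa3, needed for pharyngeal organs, had 70 reads in 425 (1.65 CPM), 1 each in 426, 429 and 410, and 0 in the other 8. Hoxd3 had 11 reads in 425 (0.259 CPM) and 0 in all other libraries. For these 3 members every other library lay at or under 3 reads.

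Group 4 has a member in each cluster and its forward border lies in the caudal hindbrain. Hoxb4 had 78 reads in library 425 (1.83 CPM), 2 in 413, 1 in 422 and 0 in the other 9. Hoxc4 had 60 reads in 425 (1.41 CPM), 4 in 410, 1 in 429 and 0 in the other 9. Hoxa4 had 34 reads in 425 (0.799 CPM), 3 in 426 and 1 in 410, and Hoxd4 had 10 in 425 (0.235 CPM), 2 in 410 and 1 in 420. All 4 members of the group were therefore read in 425, and 3 of the 4 also had a read in 410.

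Group 5, which includes the Hoxa5 and Hoxc5 genes of caudal hindbrain and cervical levels, gave the most reads of any group, 488. Hoxb5 had 0 (413), 251 (425), 1 (426) and 0 reads (431) in WT DMSO, 0, 0, 2 and 0 in Het DMSO (409, 411, 420, 429) and 2, 0, 0 and 0 in Het Hit 2 (410, 421, 422, 430). Its mean level was 1.48 ± 2.95 CPM in WT DMSO (SD, n = 4), 0.031 ± 0.062 CPM in Het DMSO and 0.029 ± 0.058 CPM in Het Hit 2. Only 425 was high, at 5.90 CPM. Hoxa5, which in the embryo also shapes the airway and the phrenic motor column, had 0, 196, 1 and 1 reads in WT DMSO, 1, 0, 1 and 1 in Het DMSO and 0, 0, 0 and 1 in Het Hit 2, in the same order of libraries. Its level in 425 was 4.61 CPM. Hoxc5 had 41 reads in 425 (0.964 CPM), 2 in 410, 1 in 426 and 0 in the other 9.

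Groups 6 to 8 were read in clusters a, b and c but not in cluster d. Hoxb6 had 106 reads in library 425 (2.49 CPM), 1 each in 426, 420 and 410, and 0 in the other 8. Hoxa6 had 23 in 425 (0.541 CPM) and 0 elsewhere, and Hoxc6 had 19 in 425 (0.447 CPM), 2 in 422 and 1 each in 426 and 421. Group 7 was low: Hoxb7 had 12 reads in 425 (0.282 CPM) and 1 in 426, and Hoxa7 had 11 in 425 (0.259 CPM), 5 in 429, 3 in 431, 2 in 409 and 1 each in 426, 411, 410 and 422.

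Hoxb8 carried all the reads of group 8 in library 425. It had 0 (413), 134 (425), 3 (426) and 0 reads (431) in WT DMSO, 0, 1, 0 and 0 in Het DMSO and 0, 0, 2 and 3 in Het Hit 2, with 3.15 CPM in 425. Its paralogs Hoxc8 and Hoxd8 had 0 reads in 425. Hoxd8 had 3 reads in 413 and 431 and 1 each in 426, 421, 422 and 430, or 10 reads in all.

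Groups 9 to 13, the trunk and limb members, had no read in library 425. Hoxa10, Hoxa11, Hoxa13, Hoxc8, Hoxc9, Hoxc11, Hoxc12, Hoxc13, Hoxd10, Hoxd11 and Hoxd12, 11 members of which Hoxc8 is of group 8, had 0 reads in all 12 libraries. Hoxd13 had 3 reads in 410 and 430 and 1 each in 413, 411 and 422. Hoxa9, Hoxb9, Hoxb13, Hoxc10 and Hoxd9 had 1 read each in 1 library. The boundary in 425 therefore lay between Hoxb8 and Hoxb9 in cluster b, between Hoxa7 and Hoxa9 in cluster a, between Hoxc6 and Hoxc8 in cluster c and between Hoxd4 and Hoxd8 in cluster d.

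Levels of different members can be compared only per length. As RPKM, which is CPM per kilobase of M21 exon, library 425 had 2.45 for Hoxa5 (95% Poisson interval 2.12 to 2.82) and 2.12 for Hoxb5 (1.86 to 2.40), whose intervals overlap. Hoxb6 followed with 1.27 (1.04 to 1.53) and Hoxb8 with 1.20 (1.00 to 1.42), which also overlap each other but lie under the 2 members of group 5. Hoxb4 had 0.714 and Hoxb3 0.702 RPKM, Hoxa6 0.618, Hoxc4 0.549 and Hoxa4 0.501, with overlapping intervals. Hoxc5, Hoxa3 and Hoxb2 had 0.312, 0.274 and 0.243 RPKM, and the 9 others with a read, from Hoxc6 down to Hoxb1, 0.185 to 0.0101. On this scale the level was higher with each group from 2 to 5 in cluster a and lower in groups 6 and 7, whereas in cluster b Hoxb7 (0.183) stood under both its neighbours.

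**Figure D3:**
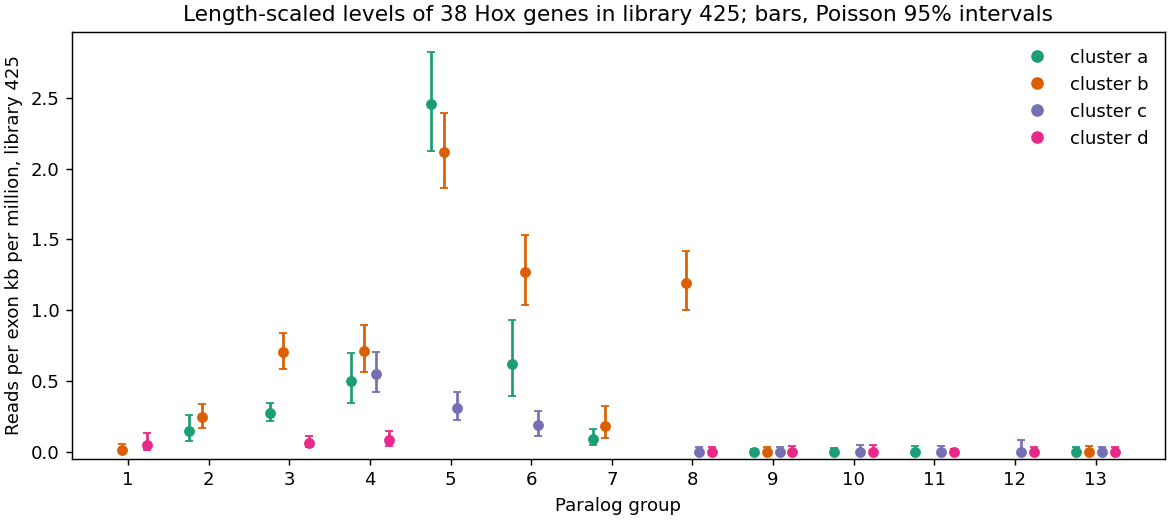
Level per exon length (RPKM, vertical axis) of 38 Hox genes in library 425 by paralog group (horizontal axis), coloured by cluster, with 95% Poisson intervals as bars. Hoxa5 and Hoxb5 are the highest, at 2.45 and 2.12, and groups 9 to 13 lie at 0 in every cluster.

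Overlapping gene models affect some of these values. In M21, 30 members share no exon base with another gene on their strand and 9 do, most of all Hoxd3 (62.3% of its exon bases) and Hoxd4 (52.3%); reads there would be set aside as ambiguous by the counting that STAR uses. Without the 9, library 425 still summed to 25.7 CPM. On the opposite strand of the same loci, library 425 had 75 reads, beside 1237 on the counted strand, and the other 11 libraries 24 in all. Over all genes, 5.85% of the stranded gene reads of library 425 were on the other strand. Whether the 75 reads are antisense transcripts was not tested. Of the 75, 28 lay opposite Hoxb3, where Hoxb3os covers 52.9% of the exon bases.

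Noncoding RNA genes of the clusters were, in sum, also highest in library 425. Of 18 listed, 17 were in the annotation, none passed the filter on low counts, and 8 had 0 reads in all libraries, Hotair, Hottip and Mir10a among them. The list summed to 1.93 CPM in 425, which was 0 to 1.93 over WT DMSO, 0 to 0.856 over Het DMSO and 0 to 1.16 over Het Hit 2. Hoxb3os had 26 reads in 425 (0.611 CPM), 6 in 426 (0.157 CPM), 4 in 410 (0.231 CPM), 3 in 429 (0.125 CPM) and 1 each in 413 and 420. Hoxaas2 had 23 in 425 (0.541 CPM), 7 in 410 (0.405 CPM), 4 in 429 (0.167 CPM), 2 in 413 and 411 and 1 in 421, so that 410 lay closer to 425 in level than in reads. Haglr, at the front end of cluster d, did not set 425 apart: it had 17 reads in 425 (0.400 CPM) and 13 in 411 (0.655 CPM).

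The comparisons of the design were made in 1 edgeR quasi-likelihood fit over all 12 libraries. No Hox member passed the filter on low counts, so none was among the 19378 genes tested. At an adjusted p under 0.05, the share of all tested genes called was 0.00516% for Het DMSO against WT DMSO, the comparison of genotypes, 0.0% for Het Hit 2 against Het DMSO, that of treatments, and 0.00516% for Het Hit 2 against WT DMSO.

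Without the filter, 35878 genes entered the same fit, among them the 28 members with a read. None of the 28 was called at an adjusted p under 0.05 in any comparison, where 0.00279%, 0.0% and 0.0111% of all genes were called, in the same order. At an unadjusted p under 0.05 there were 12 members for Het DMSO against WT DMSO, all lower in Het DMSO: Hoxd8, Hoxa3, Hoxa4, Hoxa5, Hoxb3, Hoxb4, Hoxb5, Hoxb6, Hoxb8, Hoxc4, Hoxc5 and Hoxc6, against 5.19% of all genes. For Het Hit 2 against Het DMSO there were 0 members, against 1.85%. For Het Hit 2 against WT DMSO there were 9, all lower in Het Hit 2: Hoxa3, Hoxa4, Hoxa5 and Hoxb3 to Hoxb8, against 1.69%. The median log2 fold change of the 28 was -3.98, 0 and -2.73, beside medians of 0, -0.0018 and 0 over all genes. The members named, apart from Hoxd8, had nearly all their reads in library 425, which both comparisons with WT DMSO share, so the counts and medians are given as a description.

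Library 425 decided these values. Without it and without the filter, 25 members were fitted. At an unadjusted p under 0.05 there was 1 for Het DMSO against WT DMSO (3.59% of all genes). The comparison of Het Hit 2 with Het DMSO gave 0 (1.43%), as did that with WT DMSO (1.19%). The medians of the 25 were 0, 0.06 and 0.03. Hoxb5 went from -5.88 on the log2 scale (SE 1.97; adjusted p = 0.697 in edgeR) to 0.88 (SE 1.84, adjusted p = 0.923) for Het DMSO against WT DMSO. The 1 member was Hoxd8, whose log2 fold change was -4.27 (SE 1.37; adjusted p = 0.736 in edgeR). It had 0 reads in all 4 Het DMSO libraries, and 0 to 3 in WT DMSO. Its unadjusted p was 0.0097, which did not hold after adjustment, and the difference rests on at most 3 reads in a library.

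Other genes high in library 425 were few. By a rule chosen after the values were seen, 13 genes with a symbol were at least 3-fold higher in 425 than in any other library, counting each other library as holding at least 3 reads, and 11 of the 13 (84.6%) were Hox genes. The other two were Wt1, a transcription factor of kidney, mesothelium and some spinal neurons (33 reads, 0.776 CPM), and AC160336.1 (25 reads). The same rule gave 0 to 346 genes in each of the other 11 libraries, the 346 in 411, and no Hox gene in any. Genes with a symbol that passed the filter and had at least 0.5 CPM in 425 were also ranked. Among these, the 12 with the highest ratio of 425 to the highest other library were Gm32219 (2.09), B3gnt8 (1.89), Wif1, a secreted Wnt inhibitor (1.88), Sln (1.73), Hspb1 (1.55), Fut2 (1.48), Tmprss2 (1.47), Calr4 (1.45), Aldh3a1 (1.43), Slc15a2 (1.42), Prrx2 (1.42) and Tec (1.37). The filter keeps genes counted in several libraries and had removed every Hox gene, so these ratios are not comparable with the 13 above.

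The Hox reads, taken up here as a possible mark of caudal brainstem, were set beside 26 genes listed for neurons of that region. Not all of the 26 are particular to it. In edgeR 0 of the 19 tested were called in any comparison. Their summed level was 178 to 262 CPM in WT DMSO, 168 to 768 CPM in Het DMSO and 161 to 438 CPM in Het Hit 2, and library 425, at 249 CPM, was the fifth highest of 12. Mnx1 was at 0 in all libraries and Isl1 and Ucn at 0 in 425. Library 411, the highest with 768 CPM, had 9 Hox reads. Th and Pou4f1 of the list were highest in 411 (32.1 and 21.6 CPM), as was the midbrain gene Slc6a3 (36.2 CPM). The sum therefore does not tell caudal brainstem from midbrain. Gad2 and Slc17a6, which are found in neurons of many regions, made up 569 of the 768 CPM in 411 and 127 of the 249 CPM in 425. Without them, a sum added after the values were seen, 425 ranked 3 of 12 with 121 CPM, after 411 (199.5 CPM) and 410 (173 CPM). That sum still holds Slc6a5, Tlx3 and Lbx1, at 43.4, 12.8 and 5.03 CPM in 425. Each of them was lowest in 411 (12.5, 0.0504 and 0 CPM), the library lowest in cerebellar neuron genes. The rank of 425 is therefore no measure of brainstem tissue alone.

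Of the 26 genes, 3 were highest in library 425, and those named here, Dbh, Slc6a2, Glra1 and Slc17a6, were each higher in another library. The noradrenaline genes were higher in 410 and 413 than in 425: Dbh had 6.996, 3.85 and 1.43 CPM and Slc6a2 9.14, 5.10 and 0.470 CPM, in that order. Glra1, a glycine receptor subunit of brainstem and cord, had 15.96 CPM in 425, 57.3 in 411, 36.1 in 410 and 9.12 in 413. Slc17a6, the glutamate transporter of many neurons outside the cerebellar cortex, had 15.5 CPM in 425, 277 in 411 and 84.5 in 410.

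Genes of the raphe and midbrain were highest in 411 and 410. The 14 summed to 60.4 CPM in 425, 110 in 410 and 229 in 411, and to 42.6 to 60.4 in WT DMSO, 38.9 to 229 in Het DMSO and 20.6 to 110 in Het Hit 2. Of the 9 tested 0 were called, and Foxa1 and Foxa2 were at 0 in 425. Tph2, the enzyme of serotonin neurons, had 0.776 CPM in 425 against 16.02 in 410 and 10.8 in 411. Slc6a3, the dopamine transporter of the midbrain, had 36.2 CPM in 411 and 0.0705 in 425. Nr4a2, a transcription factor of dopamine neurons and other cells, was highest in 425 (38.2 CPM), with 34.9 CPM in 426. With Nr4a2, 425 ranked 3 of 12 in the sum, and without it, a sum added after the values were seen, it ranked 6 with 22.1 CPM. Rostral patterning genes (16, 10 tested, 0 called) summed to 54.8 CPM in 425, with 47.7 to 54.8 in WT DMSO, 48.6 to 150 in Het DMSO and 46.5 to 92.2 in Het Hit 2.

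Cerebellar neuron genes were at the usual level in library 425. The 21 genes, all tested and 0 called, summed to 11820 CPM there, within 11820 to 12681 CPM in WT DMSO, 469 to 13309 in Het DMSO and 6331 to 11391 in Het Hit 2. Pcp2 of Purkinje cells had 179 CPM in 425 and Gabra6 of granule cells 310 CPM, against 0.554 and 0.604 in 411. Library 425 was thus a library of cerebellum by these genes, with Hox reads beside them.

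Choroid plexus genes and Hox reads had the same 3 highest libraries, in another order. The 15 genes, all tested and 0 called, summed to 97.4 to 1771 CPM in WT DMSO, 107 to 3036 in Het DMSO and 75.5 to 1685 in Het Hit 2. They were highest in 429 (3036), followed by 425 (1771), 410 (1685), 413 (1142) and 411 (495). Ttr, the leading transcript of that epithelium, had 968 CPM in 425, 1735 in 429, 843 in 410 and 606 in 413. Libraries 425, 410 and 429 were the 3 highest in both, but 429 had more choroid plexus RNA than 425 with 0.750 CPM of Hox against 29.1. The Hox rank of 429 rested on 18 reads. As CPM without TMM factors, its Wilson interval (0.479 to 1.20) overlapped that of 426 (0.332 to 0.793). Library 413, with 1142 CPM of choroid plexus genes, had 0.392 CPM of Hox. The part of choroid plexus tissue in the Hox reads was not tested.

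Other cell types were not raised in library 425 alone. Meningeal genes (12, all tested, 0 called) summed to 146 CPM in 425, 148 in 420 and 145 in 410, over 96.2 to 146 CPM in WT DMSO, 56.9 to 148 in Het DMSO and 85.0 to 145 in Het Hit 2. Oligodendrocyte genes (12, all tested, 0 called) summed to 2381 CPM in 425, over 1821 to 3485, 1320 to 6723 and 1338 to 5643 CPM in the 3 groups. Schwann cell genes (9, 5 tested, 0 called) were at 48.4 CPM in 425, over 41.6 to 66.7, 38.4 to 113 and 36.9 to 101 CPM, with Pmp2 and Foxd3 at 0 in 425. Skeletal muscle genes (11, 3 tested, 0 called) were at 2.33 CPM in 425, over 1.74 to 3.78 CPM in WT DMSO, 0.985 to 22.0 in Het DMSO and 1.56 to 20.8 in Het Hit 2. Pax7, a gene of muscle stem cells and also of midbrain neurons, made up 19.5 of the 22.0 CPM in 411 and had 0 reads in 425, and without it 411 had 2.52 CPM and 410 16.4 CPM. Blood cell genes (12, 9 tested, 0 called) were at 11.2 CPM in 425, over 10.6 to 56.3, 4.70 to 37.1 and 13.2 to 72.7 CPM.

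**Figure D4:**
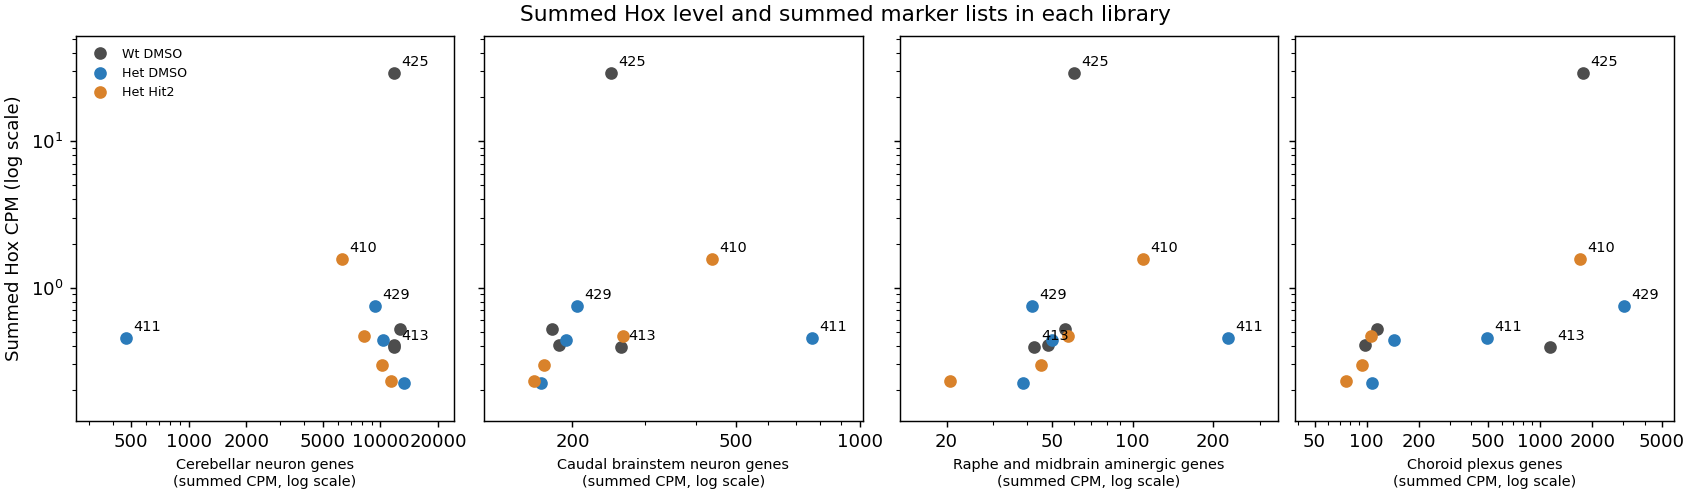
Summed Hox CPM (vertical axis, log scale) against the summed CPM of 4 marker lists (horizontal axes, log scale: cerebellar neuron, caudal brainstem neuron, raphe and midbrain, and choroid plexus genes), with 1 point per library coloured by group. Library 425 is alone at the top of each panel. Library 411 is the highest in the caudal brainstem list (768 CPM) and 429 in choroid plexus genes (3036 CPM). Their Hox levels are 0.453 and 0.750 CPM.

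Transcripts of the genes whose proteins work with Hox factors were read in all libraries. The PBX and MEIS families (9 genes, all tested, 0 called) summed to 403 to 451 CPM in WT DMSO, 426 to 454 in Het DMSO and 425 to 478 in Het Hit 2, with 421 CPM in library 425. Meis1, a DNA-binding partner of Hox proteins, had 105 CPM in 425 and 17.5 in 411. Meis2 varied most, with 6.86 CPM in 425, 60.7 in 411, 39.4 in 410 and 0.299 in 422.

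Genes that set or keep Hox expression (22, of which 16 tested, 0 called) summed to 1306 CPM in library 425, over 1229 to 1327 CPM in WT DMSO, 851 to 1273 in Het DMSO and 1125 to 1281 in Het Hit 2. Cdx1 and Cdx2, which switch on trunk Hox genes in the embryo, had 0 reads in all 12 libraries, and Cdx4 had 0 in 425. Gbx2, a gene of the front of the embryonic hindbrain, had 19 reads in 425 (0.447 CPM), 3 in 409, 2 in 411, 1 in 410 and 0 in the other 8. Aldh1a2, which makes retinoic acid and is abundant in meninges, had 10.1 CPM in 425, 11.2 in 420 and 1.66 to 7.56 in the other 10. Kmt2a, which holds Hox chromatin active, had 679 CPM in 425 and 501 to 709 in the others.

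Library 410, of the Het Hit 2 group, was the next in Hox level. Its 27 reads fell on 14 members, and 22 of them were of groups 1 to 5 (1.27 CPM). Hoxc4 had 4, Hoxb3 and Hoxd13 3 each, and no other member more than 2. In the same library Dbh, Slc6a2, Tph2 and Meis2 were among the highest of the 12, and cerebellar neuron genes were at 6331 CPM, the lowest after 411. Their part in the 27 reads was not tested, and the counts are too small to order the paralog groups within 410.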

How the data were processed

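RNA of 12 samples labelled cerebellum was sequenced from rRNA-depleted directional libraries (500 ng of RNA, 13 cycles, pairs of 100 bases, per the labels' protocols). The authors deposited raw read counts per gene, 1 table per library in STAR's layout. The submitters' processing notes name FastQC 0.11.9, STAR 2.7.10a and GRCm39 (mm39); the annotation release is not given in the sources used here. Of the 3 count columns deposited, the fourth column of the table was used, since 5.21% to 6.47% of stranded gene reads were in the other. Reads without a feature (44.7% to 54.6% of a library), multimapping (4.08% to 7.01%), unmapped (3.70% to 6.53%) and ambiguous reads (0.761% to 1.33%) were left out. Of 55401 identifiers, 55141 had a GENCODE M21 symbol. Columns of other samples: 0.

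Counts were tested with edgeR 4.0.16 in R 4.3.3 (filterByExpr, TMM, 1 quasi-likelihood fit of 12 libraries, two-sided, Benjamini-Hochberg over all genes, adjusted p under 0.05). The filter took out every Hox gene, so the fit without it gives their counts; its repeat without library 425 was added after seeing the data. DESeq2 1.42.0 was another alternative. Intervals are Wilson or exact Poisson at 95%. A count of 0 is taken to allow 3 reads, while the exact Poisson interval of such a count in library 425 reaches further, to 0.0867 CPM. The SE given with an edgeR log2 fold change is its absolute value divided by the square root of the test's F statistic. It was worked back from the test and is not a separate estimate. The edgeR steps were tested on simulated data. Members, marker lists and tests were chosen with earlier results of these data known.

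Named were every Hox gene read in a library, those with an unadjusted p under 0.05 in a comparison, and up to 8 genes per list. Also named were the 12 tested genes highest in library 425 relative to the others, among those with at least 0.5 CPM there. Other genes of the lists, and Wt1 and AC160336.1, were chosen after their values were seen. No animal number occurs in more than 1 group, and libraries were not paired. The labels give each library its own animal, and p-values measure the spread between these animals. Values of 4 genes are not reported here.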

Additional observations from a re-analysis of the deposited data

Results flagged for a closer look

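Within each group of 4, the gap between the highest or lowest library and its neighbour was compared with Dixon's 95% limit. Chance alone passes about 1 in 20 such groups. Of 79 checks 28 passed, but this count is no measure against chance, because many checks share a library or reads and the Hox genes were taken up with library 425 already known to be high.

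In the WT DMSO group, library 425 stood far above the others in summed Hox level (29.1 CPM, the next 0.522) and in members read (18, the next 0). It also stood apart in paralog groups 1 to 5 (21.9 CPM, the next 0.287) and 6 to 8 (7.17 CPM, the next 0.268). The 10 members checked singly were those with the highest mean CPM over all libraries, a ranking that library 425 sets, so their passing follows from the choice and is given as a description. They were Hoxb5 (5.90 CPM), Hoxa5 (4.61), Hoxb8 (3.15), Hoxb3 (2.98), Hoxb6 (2.49), Hoxb4 (1.83), Hoxa3 (1.65), Hoxc4 (1.41), Hoxc5 (0.964) and Hoxb2 (0.846), where the next library had at most 0.0783 CPM. Library 426 was above the rest in cerebellar neuron genes (12681 CPM, the next 11836) and 431 in blood cell genes (56.3 CPM, the next 11.2).

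In the Het DMSO group, library 429 was the only one with a member read (1, Hoxa7 with 5 reads, the next 0), a pattern that passes the limit by construction. It was highest in choroid plexus genes (3036 CPM, the next 495). Library 411 was far above the others in the list of caudal brainstem neuron genes (768 CPM, the next 205), which is not particular to that region. It was also far above them in genes of raphe and midbrain (229, the next 49.6) and of rostral patterning (150, the next 56.8). The skeletal muscle list also stood out in 411 (22.0, the next 1.62), but 19.5 CPM of it was Pax7, which midbrain neurons also express, and the other 10 genes summed to 2.52 CPM.

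In the Het Hit 2 group, library 410 was the only one with a member read (1, Hoxc4 with 4 reads at 0.231 CPM, the next 0), which likewise passes by construction. It was above the others in groups 1 to 5 (1.27 CPM, the next 0.148), and in genes of choroid plexus (1685 CPM, the next 106), Schwann cells (101, the next 47.5) and meninges (145, the next 94.5).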

How the results depend on the processing

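Library 425 had 18 members read at 0.2 CPM, 21 at 1 read or more, 18 at 10 reads or more, 18 at 0.1 CPM, 12 at 0.5 CPM and 16 in unstranded counts. The highest other library had 1, 14, 0, 9 and 0 in the first 5 settings. The summed Hox level of 425 was 26.0 CPM in unstranded counts, 25.7 CPM without members that share exon bases and 1.76 CPM on the opposite strand. On that strand the highest other library had 0.231 CPM and the ratio was 7.62; under the other settings the ratio was 17.8 to 21.2.

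Hox members were tested only in the edgeR fits without the filter (28 members, or 25 without library 425) and, for Het Hit 2 against Het DMSO, with DESeq2 (17 members), and 0 were called; in all other edgeR fits no member passed the filter. DESeq2 gave no adjusted p to any member in the other comparisons and no p at all to 11 of 28. At an unadjusted p under 0.05 it gave 0 of the 17 members that had a p. The 11 without a p were those with the most reads in library 425, from Hoxb5 (251 reads) to Hoxa4 (34 reads). The 0 therefore does not cover them. The median Hox fold change has no value with the filter, since no member passed it. Genes of all kinds called for Het DMSO against WT DMSO were 1, but 39 with DESeq2, 0 with only the 2 groups compared and 18 without libraries 409 and 411. For Het Hit 2 against WT DMSO they were 1, but 23 with DESeq2, 4 without the filter, 2 in unstranded counts, 54 with only the 2 groups and 90 without 409 and 411. Leaving out each replicate in turn gave 0 to 9 (9 without 411, 4 without 409, 0 without 429), 0 for Het Hit 2 against Het DMSO, and 0 to 14 for Het Hit 2 against WT DMSO (14 without 411, 5 without 409, 2 without 429, 0 without any library of the 2 groups compared). The cause was not tested. No paired analysis was possible because no animal number occurs in more than 1 group. Depth limits members outside 425, where 3 reads are 0.0689 to 0.187 CPM.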
